A study of Homo sapiens with 4 samples.

Results

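The genes described here encode the enzymes that hydroxylate HIFα and the core of the ubiquitin ligase that takes up the hydroxylated protein. They are the HIF prolyl hydroxylases *EGLN1*, *EGLN2* and *EGLN3*, the related transmembrane enzyme *P4HTM*, the asparagine hydroxylase *HIF1AN* (also called FIH), and *VHL*, *CUL2* and *RBX1* of the VHL complex. They were chosen by name for these known roles, with earlier results of these data already known. All 8 were found among the 55862 genes present both in the annotation of the expression tables and in the one used to place peaks. The cells were HK2, a human line of renal proximal tubule origin that was immortalized for culture. Every sample was exposed to 50 μM FG-4592 (roxadustat), supplied in DMSO, which inhibits the prolyl hydroxylases and so stabilizes HIFα. There were 2 RNA-seq libraries and 2 HIF1α ChIP-seq peak lists, numbered as replicates 1 and 2 of each assay. No library of untreated cells was analysed here, and all values are levels and peak positions under FG-4592, with no fold change by treatment and no test. The labels do not say whether replicates were separate cultures, and the spread between them may be technical.

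In oxygenated cells the 3 EGLN enzymes hydroxylate prolines of HIFα, and VHL binds the hydroxylated form. VHL is joined through elongin B and elongin C to the scaffold CUL2, whose RING partner RBX1 recruits the ubiquitin-conjugating enzyme, while HIF1AN hydroxylates an asparagine and thereby blocks binding of coactivators. HIF dimers bind DNA at a short core, ACGTG or GCGTG, and *EGLN1* and *EGLN3* are known HIF target genes in many cell types, so that the pathway feeds back on itself.

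Replicate 1 of the ChIP-seq had 5 peaks in or within 10 kb of these genes, and each held a core within 100 bases of its centre, as did 86.2% of the 1661 peaks searched in that list. In these 5 the nearest core lay at most 21 bases from the centre, and the share of the whole list at that distance was not counted. The 29 bases around the core nearest the centre are shown for all 5, because these are the replicate 1 peaks at these genes. They are written 5′ to 3′ on the strand that carries that core, from GRCh37 (the hg19 build of the peak lists), and capitals mark every ACGTG or GCGTG on either strand.
*EGLN1* start: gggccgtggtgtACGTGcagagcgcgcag
*EGLN3* intron: gctACGTGcgctGCGTGagggtggcagcc
*EGLN3* upstream: CACGCtagcgctACGTGagctgcgagcct
*HIF1AN* and *NDUFB8*: gagccgggccaaACGTGacggaggaagcc
*RBX1* upstream: ggggccgaggctACGTGagctagccgggt
The *EGLN1* window is chr1:231558030-231558058 on the minus strand. Its core lies 11 bases upstream of the start of the main transcript in the annotation used to place peaks. The intronic *EGLN3* window is chr14:34407693-34407721 on the plus strand, and the upstream one is chr14:34529485-34529513 on the minus strand. The 4th window is chr10:102289665-102289693 on the plus strand, in an untranslated exon of *NDUFB8* and an intron of *HIF1AN*. The *RBX1* window is chr22:41347130-41347158 on the minus strand, between genes, with its core 238 bases upstream of the start. Both *EGLN3* windows held 2 cores, and the other 3 windows held 1.

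The cell type was checked against markers. Of 11 proximal tubule markers, 3 reached a mean of 1 FPKM (mapped fragments, corrected for the length of the transcript and the size of the library), namely *PAX8*, *GGT1* and *SLC5A2*. The list summed to 186 FPKM in replicate 1 and 174 in replicate 2, and *PAX8* was its most abundant gene. The defining genes *LRP2*, *SLC22A6* and *HNF4A* were listed at 0 in both libraries, so the proximal tubule label rests on few of its markers here. Epithelial markers summed to 437 and 433 FPKM, with 4 of 5 genes at 1 or more and *KRT19* the highest. Of 4 mesenchymal markers, 2 reached 1 FPKM, and the list summed to 1334 FPKM in replicate 1 and 841 in replicate 2. *VIM* was its most abundant gene at 1294 and 802 FPKM, *COL1A1* was at 38.7 in each library, *PDGFRB* at 0.490 in each, and *PDGFRA* was listed at 0. Of 3 leukocyte markers, *CD68* was at 33.6 and 31.5 FPKM, and *PTPRC* and *CD3E* were listed at 0. None of the 4 markers of other tubule segments or the 3 of endothelium reached 1 FPKM, and these lists summed to 0.0195 and 0.0268 FPKM and to 0.0254 and 0.

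All 8 genes reached a mean of 1 FPKM, as did 13317 of the 55862 genes (23.8%), which are called expressed genes from here on. A gene's FPKM is the sum of its transcripts and is scaled by length, so that levels of different genes can be set side by side. Among the 3 EGLN enzymes, *EGLN1*, which encodes the enzyme also called PHD2, stood far above its paralogues. Its level was 36.4 FPKM in replicate 1 and 38.6 in replicate 2 (37.5 ± 1.50, SD, n = 2), above 87.5% of expressed genes. *EGLN2*, which encodes PHD1, was at 11.6 and 15.0 FPKM (13.3 ± 2.43, n = 2). *EGLN3*, which encodes PHD3, was at 5.80 and 4.97 FPKM (5.38 ± 0.588, n = 2). The libraries of the 3 genes did not overlap. *EGLN1* held 67.7% of the summed FPKM of the 3 genes in replicate 1 and 65.9% in replicate 2, *EGLN2* 21.5% and 25.6%, and *EGLN3* 10.8% and 8.48%. Counting only the largest transcript of each gene moved the *EGLN1* share to 79.2% and the *EGLN2* share from a mean of 23.6% to 12.9%.

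The other hydroxylases were lower than *EGLN1*. *HIF1AN* was at 11.8 and 11.6 FPKM (11.7 ± 0.116, n = 2). *P4HTM*, whose product is anchored in the endoplasmic reticulum membrane, was the lowest of the 8 at 4.89 and 3.91 FPKM (4.40 ± 0.693, n = 2), above 28.2% of expressed genes. The ligase subunits were unequal among themselves. *RBX1*, the RING subunit that other cullins also use, was the highest of the 8 at 48.0 and 47.4 FPKM (47.7 ± 0.442, n = 2). *VHL*, the substrate receptor, was at 9.77 and 8.69 FPKM (9.23 ± 0.765, n = 2). *CUL2*, the scaffold, was at 8.23 and 8.28 FPKM (8.26 ± 0.0353, n = 2). *VHL* and *CUL2* were thus at similar levels, with the lower *VHL* library at 8.69 and the higher *CUL2* library at 8.28.

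**Figure D1:**
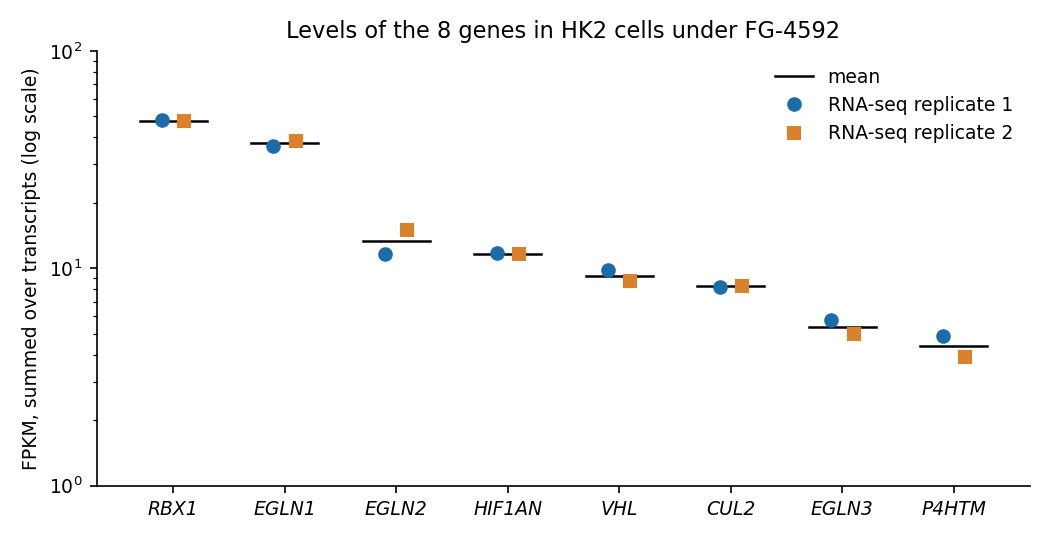
FPKM of each gene, summed over its transcripts, on a log axis, with replicate 1 as circles, replicate 2 as squares and the mean of both as a bar. *RBX1* and *EGLN1* lie above 36 FPKM in both libraries, and *EGLN2* and *HIF1AN* are the only neighbours in the order whose libraries overlap.

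Ordered by mean FPKM the genes were *RBX1*, *EGLN1*, *EGLN2*, *HIF1AN*, *VHL*, *CUL2*, *EGLN3* and *P4HTM*. The largest step was between *EGLN1* and *EGLN2*, whose means stood at a ratio of 2.82. *EGLN2* and *HIF1AN* did not differ beyond their spread, since the lower *EGLN2* library, at 11.6 FPKM, lay below the higher *HIF1AN* library, at 11.8. *EGLN3* and *P4HTM* were separated by 4.97 against 4.89 FPKM, a gap smaller than the SD of either gene. None of the 8 genes had libraries more than 1.5-fold apart, against 6.81% of expressed genes. On the log2(FPKM + 1) scale the median ratio of replicate 2 to replicate 1 was -0.02 over the 8 genes, with a range from -0.26 for *P4HTM* to 0.35 for *EGLN2*, and 0.01 over the expressed genes.

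The genes differed in how their signal was divided among transcripts. *EGLN1* and *RBX1* were nearly all in 1 transcript each, with 99.9% and 98.0% as the mean of both libraries. *HIF1AN* had 85.2% and 89.5% of its FPKM in its main transcript, which has a last exon of 11906 bases. *EGLN3* had 69.8% and 68.2% in its main transcript, and most of the rest in a protein-coding transcript of 1 exon. *P4HTM* had 53.8% and 55.0% in its main transcript and 78.5% and 65.3% in protein-coding transcripts as a whole. *EGLN2* had 40.1% and 51.1% in its main transcript. *CUL2* had 33.7% and 31.2% in its transcript of highest mean FPKM, which was not its largest transcript in either library.

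In *CUL2* the division itself differed between libraries while the sum did not. ENST00000374748 held 46.9% of the gene's FPKM in replicate 1 and 15.7% in replicate 2, and ENST00000374749 held 9.89% and 34.8%. Added together these transcripts gave 4.68 and 4.18 FPKM. These are long protein-coding models of 22 and 21 exons, and the gene total of 8.23 and 8.28 FPKM was steadier than either of them.

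*EGLN2* showed a similar exchange with a neighbouring gene model. The read-through gene *RAB4B-EGLN2*, which joins *EGLN2* to the gene upstream of it, was at 3.38 FPKM in replicate 1 and 0.0975 in replicate 2. The sum of *EGLN2* and the read-through gene was 15.0 and 15.1 FPKM, so the difference between libraries seen in *EGLN2* alone was not seen in the sum. *RAB4B* was at 2.17 and 5.88 FPKM, and its sum with the read-through gene was 5.54 and 5.98. Reads in exons shared by these models cannot be told apart, and the *EGLN2* level is uncertain to that extent. Pseudogenes of the other genes were low, with *EGLN3P1* at 0.238 and 0.192 FPKM, *RBX1P2* at 0.708 and 0.171, and *RBX1P1* listed at 0.

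**Figure D2:**
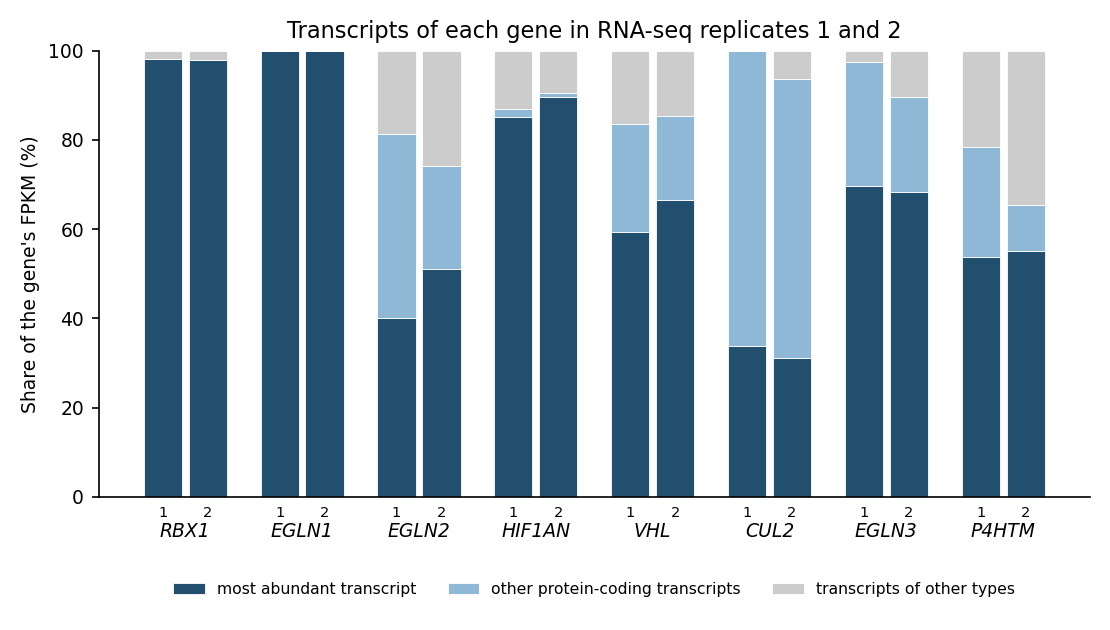
Share of each gene's FPKM in its transcript of highest mean FPKM, in other protein-coding transcripts and in transcripts of other types, in percent, for RNA-seq replicates 1 and 2. *EGLN1* and *RBX1* are almost wholly in 1 transcript, and *CUL2* has 33.7% and 31.2% there.

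*VHL* is annotated with a transcript that lacks exon 2 and encodes a shorter protein. The full model of 3 exons, ENST00000256474, was at 5.80 and 5.78 FPKM, or 59.3% and 66.5% of the gene. The model of 2 exons, ENST00000345392, was at 2.37 and 1.64 FPKM, or 24.3% and 18.9%. Read coverage summed over all *VHL* transcripts was uneven along the full model, at 54.7 and 52.6 in exon 1, 162 and 144 in exon 2, and 30.7 and 24.4 in exon 3. Exon 2 is thus the most deeply covered exon of the gene in both libraries. The full model alone had 49.9 and 49.3 in exon 1, 147 and 133 in exon 2, and 17.6 and 15.6 in exon 3. How the remainder was divided between the model that lacks exon 2 and the other *VHL* transcript was not examined.

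Coverage was uneven in other genes too, which bears on levels scaled by length. In *EGLN1* the first exon of the model used is 4047 bases long and had a coverage of 111 and 102, while exons 2 to 4 had between 397 and 488. That length is from the annotation of the expression tables. Whether the annotation used to place peaks gives the same *EGLN1* start was not checked. The *EGLN1* level and its share among the EGLN genes are uncertain to that extent. In *P4HTM* the first exon had 3.28 and 2.63 over all transcripts, and exons 2 to 9 had between 11.5 and 48.5. In *RBX1* the last exon had 67.7 and 69.5, and exons 2 to 4 had between 730.3 and 937. Long end exons were thus the lowest in these 3 genes. In *EGLN2* the low exon was an internal one, exon 4, with 19.4 and 17.9 over all transcripts and 2.64 and 3.50 in the main transcript, against 88.6 and 121 in exon 3 and 137 and 164 in exon 5 over all transcripts. The *EGLN2* level and the share of its main transcript are uncertain to that extent too. In *HIF1AN* the last exon had 48.7 and 45.9 and the others between 63.9 and 203. In *CUL2* the first exon had 16.5 and 18.1, the last had 16.7 and 13.1, and those between had from 41.5 to 98.3. In *EGLN3* the exons ranged from 17.5 to 59.7. The 3 EGLN genes also share exon lengths in their main transcripts: each has an exon of 120 bases followed by an exon of 137 bases, and *EGLN1* and *EGLN2* have a next exon of 68 bases where *EGLN3* has 74.

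The HIF1α peak lists were very unequal, replicate 1 holding 1689 peaks and replicate 2 holding 16953. They also differed in where peaks lay. In replicate 1, 32.1% of peaks had at least 50% of their bases in annotated exons, and in replicate 2, 80.9% did. These shares are over the 1661 and 16655 peaks on annotated chromosomes. A core was present in 89.3% of 1661 replicate 1 peaks and in 48.8% of 16648 replicate 2 peaks, with 28 and 305 peaks on unplaced contigs or mitochondrial DNA not searched. The lists give positions with no score, and the part of the exon share in the replicate 2 results was not tested. Positions alone did not show whether the replicate 2 list is the one intended for that sample, so counts for replicate 2 and for both replicates describe the list as deposited.

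A promoter peak was counted when a peak overlapped the 1 kb on either side of any annotated start site by at least 1 base. Replicate 1 gave 3 of the 8 genes (*EGLN1*, *HIF1AN* and *RBX1*), against 8.14% of expressed genes and 2.50% of all genes. Replicate 2 gave 2 of 8 (*EGLN1* and *EGLN2*), against 20.8% and 9.72%. Only *EGLN1* had one in each list, against 2.68% and 0.779%. A peak in or within 10 kb of the gene was found for 4 of 8 genes in replicate 1 (13.1% of expressed genes), for 6 of 8 in replicate 2 (63.1%) and for 3 of 8 in both (9.46%). The replicate 2 share was thus near its background. Peaks of the replicates overlapped each other at 2 of the 8 genes, *EGLN1* and *EGLN3*, against 2.37% of expressed genes. This took 2 of the 5 replicate 1 peaks and 2 of the 22 replicate 2 peaks at these genes, where 20.4% and 1.96% of all peaks in the lists overlapped one of the other list.

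*EGLN1* (chr1:231499497-231558033, minus strand) had peaks of both replicates over its start in the annotation used to place peaks. The replicate 1 peak, chr1:231557714-231558342, was centred 5 bases from the start of the main transcript, and 50.9% of its bases were exonic. The replicate 2 peak, chr1:231556808-231558183, shared 470 bases with it but was centred 538 bases downstream, in coding exon, and 89.1% of its bases were exonic. Both held 3 cores, among them the one 11 bases upstream of the start. With peaks of at least 50% exonic bases left out, a choice made after seeing the data, *EGLN1* no longer counted in either replicate. The other 3 replicate 2 peaks at *EGLN1* lay wholly in the untranslated part of the last exon and held no core.

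The bases before the *EGLN1* start are shown because the replicate 1 peak covers all of them and the replicate 2 peak covers those nearest the start, up to position 231558183. The sequence is from the RefSeq promoter table (GRCh38.p14), in which 7 of the 8 genes had an entry and *VHL* had none, and it matched GRCh37 once, at chr1:231558034-231558283 on the minus strand. Capitals mark ACGTG or GCGTG on either strand.
*EGLN1* promoter: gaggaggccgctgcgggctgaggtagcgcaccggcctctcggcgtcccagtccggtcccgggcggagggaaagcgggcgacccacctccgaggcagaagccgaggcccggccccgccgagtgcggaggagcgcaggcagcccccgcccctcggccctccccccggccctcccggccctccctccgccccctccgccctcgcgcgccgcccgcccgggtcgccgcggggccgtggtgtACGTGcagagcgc
A core stood in the 250 bases before the start in 3 of the 10 promoter entries of these genes, those of *EGLN1*, *RBX1* and *EGLN2*, and in 43.2% of all 35116 promoters in the table.

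*EGLN3* (chr14:34393433-34931980, minus strand) had no promoter peak in either replicate. Its shared peak lay in an intron, 12552 bases downstream of the main start by the centre of the replicate 1 peak, chr14:34407482-34407975. The replicate 2 peak, chr14:34407525-34407850, lay wholly inside it, and neither had exonic bases. Each peak held the 2 cores printed in the intronic window and no other, 21 bases from the centre at the nearest in replicate 1 and 11 in replicate 2. Replicate 1 had a further peak, chr14:34529277-34529689, 109203 bases upstream of the main start, with 8 cores and no exonic bases. It falls inside the annotated extent of *EGLN3* because some transcripts of the gene start far upstream, and *EGLN3-AS1*, the antisense gene nearby, was listed at 0 FPKM in both libraries. Replicate 2 had 3 other peaks in this extent, none of which held a core. The peak chr14:34394197-34394936 was wholly exonic and centred in an untranslated exon of *EGLN3*. The peak chr14:34903563-34904440 was wholly exonic and centred in an untranslated exon of the neighbouring gene *SPTSSA*, 483721 bases upstream of the main *EGLN3* start.

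*HIF1AN* (chr10:102288829-102319755, plus strand) counted as having a replicate 1 promoter peak through an upstream start site. That peak, chr10:102289493-102289837, was centred 6035 bases upstream of the start of the main *HIF1AN* transcript and spanned a start of *NDUFB8*, a subunit of respiratory complex I on the opposite strand. Of the bases of the peak, 67.8% were exonic. *NDUFB8* was at 140.1 and 137 FPKM and *HIF1AN* at 11.8 and 11.6. Replicate 2 had 3 peaks in the untranslated part of the last *HIF1AN* exon, all wholly exonic, and 1 in introns of *NDUFB8* with no core. With only the start site of each gene's most abundant transcript, a choice made after seeing the data, 2 of the 8 genes had a replicate 1 promoter peak, *EGLN1* and *RBX1*, against 6.63% of expressed genes.

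**Figure D3:**
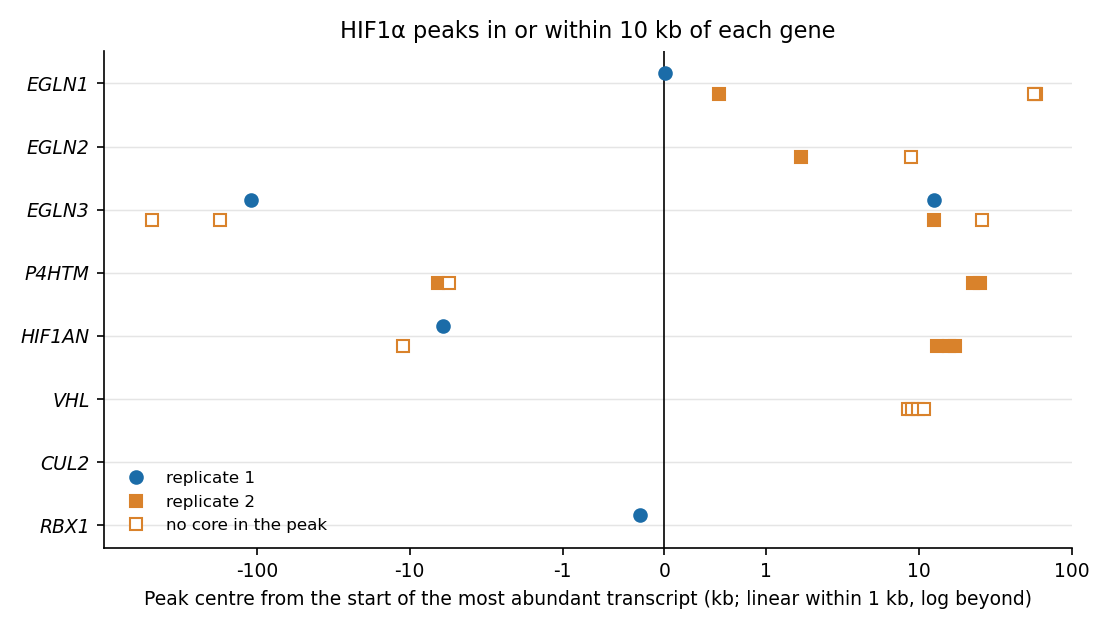
Centres of HIF1α peaks in or within 10 kb of each gene, by distance from the start of its most abundant transcript in kb (linear within 1 kb and log beyond, negative upstream), with replicate 1 as circles, replicate 2 as squares and open symbols for peaks with no ACGTG or GCGTG. All 5 replicate 1 peaks hold a core, and 13 of 22 replicate 2 peaks do not.

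*RBX1* (chr22:41347351-41369313, plus strand) had a replicate 1 peak just upstream, chr22:41346961-41347316, centred 244 bases before the main start. It held 5 cores and no exonic bases. The nearest replicate 2 peak was 90.8 kb from the gene. The promoter is shown from 250 to 32 bases before the RefSeq start, up to the first annotated start of the gene, at chr22:41347132-41347350 on the plus strand of GRCh37, with the same meaning of capitals.
*RBX1* promoter: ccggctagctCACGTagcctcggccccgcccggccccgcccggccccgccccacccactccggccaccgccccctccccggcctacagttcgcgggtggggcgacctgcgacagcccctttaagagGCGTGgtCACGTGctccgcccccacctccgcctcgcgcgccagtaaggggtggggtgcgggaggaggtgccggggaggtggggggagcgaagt
This stretch held 4 cores, counting both strands, and 2 of them are the overlapping cores of the palindrome CACGTG. The palindrome cores lay 129 and 130 bases from the peak centre, and the nearest core lay 6 bases from it.

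*EGLN2* (chr19:41304901-41314339, plus strand) has the same palindrome near its start, without a peak over it. The 30 bases at chr19:41305035-41305064 on the plus strand, 61 to 32 bases before the RefSeq start, are given with the cores in capitals.
*EGLN2* palindrome: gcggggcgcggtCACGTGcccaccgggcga
CACGTG was present in the 250 bases before 6.34% of all RefSeq starts. No peak of either replicate overlapped these bases, and the nearest replicate 1 peak was 215 kb from the gene. By the rule for promoter peaks *EGLN2* had 2 in replicate 2, both wholly exonic and both counted through start sites of transcripts that begin further downstream. The first, chr19:41306282-41307296, was centred 1693 bases downstream of the main start and held 2 cores. The other, chr19:41313801-41314097, lay in the last exon, 653 bases from a start annotated at 41313148, and held no core.

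The remaining 3 genes had no promoter peak in either replicate. *VHL* (chr3:10183462-10195351, plus strand) had no replicate 1 peak nearer than 26.1 kb, where a peak covered a start of *BRK1*, and its 4 replicate 2 peaks all lay in the untranslated part of the last exon and held no core. *P4HTM* (chr3:49027322-49044586, plus strand) had no peak inside the gene, and the 4 replicate 2 peaks within 10 kb lay in exons of its neighbours *ARIH2* and *WDR6*. *CUL2* (chr10:35297432-35415934, minus strand) had its nearest peak of either replicate 84.3 kb away. Across the 8 genes, all 5 replicate 1 peaks and 9 of 22 replicate 2 peaks held a core, against 89.3% and 48.8% of the peaks searched in those lists. Of the 22 replicate 2 peaks, 19 had at least 50% exonic bases, against 80.9% in the list, and 18 were wholly exonic.

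The other genes of the pathway were taken from lists chosen for known roles, with earlier results of these data already known. Of 72 genes, 67 were expressed at that level. The substrate *HIF1A* was at 110.3 and 114 FPKM, *EPAS1*, which encodes HIF2α, at 27.3 and 42.4, and their partner *ARNT* at 7.80 and 8.20. *HIF3A* and *ARNT2* were below 1 FPKM. *ELOB* and *ELOC*, the elongins that tie VHL to CUL2, were at 77.2 and 67.3 FPKM and at 47.7 and 35.9. The elongins and *RBX1* were thus several times higher than *VHL* and *CUL2*, although elongins and RBX1 also serve other ligases.

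*CUL2* was not the most abundant cullin. The 5 others listed (*CUL1*, *CUL3*, *CUL4A*, *CUL4B* and *CUL5*) had a median of 22.1 FPKM, from 4.71 for *CUL5* to 31.1 for *CUL4A*, and *CUL2*, with a mean of 8.26, lay above *CUL5* alone among these. *CUL7* and *CUL9* were not in the list. Of 12 other CUL2 substrate receptors, 11 were at 1 FPKM or more, and *KLHDC3*, a receptor for C-terminal degrons, was the highest at 53.2 and 47.9 FPKM. *PRAME* was listed at 0. *NEDD8*, the modifier that activates cullins, was at 48.9 and 45.4 FPKM. All 10 COP9 signalosome genes, which remove NEDD8, were at 1 FPKM or more, and *COPS8* had 11.3 FPKM in replicate 1 and 26.4 in replicate 2. It was among 4 of the 67 expressed pathway genes with libraries more than 1.5-fold apart, with *EPAS1*, *COPS7A* and *COPS7B*, against 6.81% of expressed genes.

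**Figure D4:**
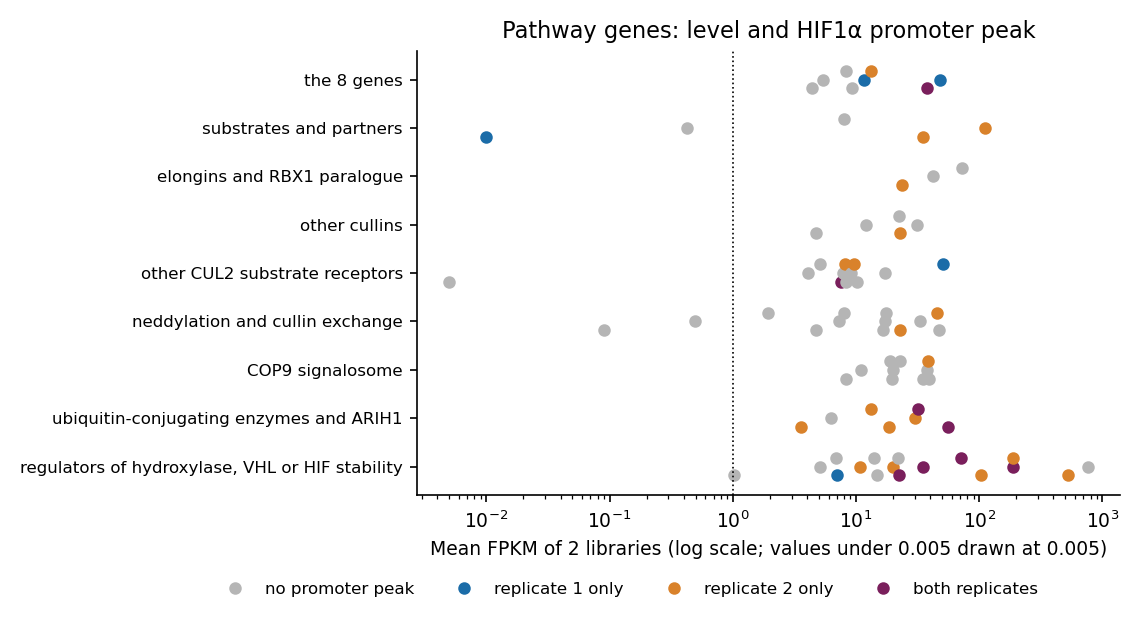
Mean FPKM of 2 libraries on a log axis for the 8 genes and for 72 other genes of the pathway by list, coloured by HIF1α promoter peak. The dotted line marks 1 FPKM, which 67 of the 72 reach. Of these 67, 7 have a promoter peak in both replicates, against 2.68% of expressed genes.

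Of the 67 expressed pathway genes, replicate 1 placed a peak at the promoter of 9, replicate 2 at 25, and both lists at 7, against 8.14%, 20.8% and 2.68% of expressed genes. *HIF3A*, listed at 0 and 0.0197 FPKM, had one in replicate 1. Among the 17 regulators of hydroxylase, VHL or HIF stability, 4 had a promoter peak in both replicates, against 2.68% of expressed genes. These were *SIAH2*, a ubiquitin ligase that acts on EGLN enzymes, *PTGES3*, the p23 cochaperone, *AJUBA*, a LIM protein, and *WSB1*, a ubiquitin ligase for VHL. *AJUBA* was at 36.0 and 33.8 FPKM, *SIAH2* at 22.6 and 22.0 and *WSB1* at 64.6 and 77.8. *LIMD1*, a scaffold that brings EGLN1 and VHL together, had one in replicate 1 alone and was at 7.16 and 6.73 FPKM. The other 3 genes with promoter peaks in both lists were the receptor *FEM1C* and the ubiquitin-conjugating enzymes *UBE2D2* and *UBE2D3*. At these 7 genes the peaks of both lists need not overlap, and their exonic share was not examined.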

How the data were processed

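RNA-seq and HIF1α ChIP-seq of HK2 cells under FG-4592 were used, with 2 replicates each. Per the file headers, the authors estimated transcript levels with StringTie 1.3.3 on GENCODE 27, and the deposited tables give coverage, FPKM and TPM but no read counts. Their coordinates are those of GRCh38, although the methods of the study name hg19. The authors aligned ChIP-seq reads to hg19 with Bowtie2 and called peaks with MACS2 per replicate; the deposited lists hold positions only.

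FPKM was summed per gene. Coverage multiplied by length came to 4442 and 4202 Mb, and for these genes ranged from 53.9 and 44.8 kb (*P4HTM*) to 1429 and 1423 kb (*EGLN1*). Peaks were placed with GENCODE 44 on GRCh37 and joined to levels by Ensembl identifier. Transcript types came from GENCODE 44. Cores were searched on both strands. The 8 genes and all lists were chosen with earlier results of these data known. Named genes were the 8, every gene of the lists, neighbours, pseudogenes and read-through genes. No test was run. Scripts were tested on simulated data. Python 3.11.15, numpy 2.4.6, pysam 0.24.0 and matplotlib 3.10.9 were used.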

Additional observations from a re-analysis of the deposited data

How the results depend on the processing

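The values below are those that moved, taken as any step in rank, a share beyond the replicate SD, or a count by more than 1.5 times. Some outcomes were fixed by construction and say nothing about stability: with 2 libraries, a share with either left out always lies within the SD, and TPM rescales each library as a whole, so that shares and the order within a library cannot change. No paired analysis was possible because no result comes from a test. With the largest transcript alone, *EGLN2* ranked 4, *HIF1AN* 3, *EGLN3* 6 and *CUL2* 7 by FPKM, and the shares of *EGLN1*, *EGLN2* and *EGLN3* were 79.2%, 12.9% and 7.90%. Leaving out a library, the ranks of *EGLN2* and of *HIF1AN* each ran from 3 to 4. With protein-coding transcripts only, the *EGLN1* and *EGLN2* shares were 71.0% and 19.4%, and with *RAB4B-EGLN2* added to *EGLN2* (chosen after seeing the data) the *EGLN1* share was 64.7%. Genes with a promoter peak in replicate 2 numbered 6 with a 10 kb window, against 50.0% of expressed genes, and 1 with the most upstream start site (9.51%), and those with one in both replicates numbered 3 with the 10 kb window (7.17%). With either list left out, a peak in both is undefined, and the values of 2 to 3 only repeat the counts of the remaining list and say nothing about stability. Chosen after seeing the data, the start site of the most abundant transcript gave 1 gene in replicate 2 (10.5% of expressed genes), and peaks with under 50% exonic bases gave 1 gene in replicate 1 (*RBX1*), 0 in replicate 2 and 0 in both, against 4.04%, 1.64% and 0.413%; at *EGLN1* the replicate 1 peak is 50.9% exonic, just past that limit. The cause of the other shifts was not tested. Depth behind the peak lists is unknown.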
